A study of Mus musculus with 16 samples.

Results

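Vehicle-treated ears of mice without miR-146a were compared with vehicle-treated ears of wild-type mice, which asks how ear skin without this microRNA differs when vehicle and no imiquimod is given. The comparison used 8 of the 16 arrays of the series, chosen by their titles: 4 of miR-146a-/- ears (B6 knockout mice, background C57BL/6J) and 4 of wild-type C57BL/6J ears, all from mice aged 8 to 11 weeks. These ears received a vehicle of unstated composition on 3 days and were collected on day 4, so they are not untreated skin. The remaining 8 arrays, 4 of knockout and 4 of wild-type ears, came from mice given 31.25 mg of Aldara cream a day (5% imiquimod, which activates Toll-like receptors and inflames the skin as in psoriasis) on the right ear on 3 days, with collection on day 4. They entered the fit, and they supplied a genotype comparison in arrays that the vehicle comparison did not use. The sources used here do not state how the knockout allele was made, whether wild-type mice were littermates or at which hour ears were collected. Since the labels leave unsaid whether each sample of a group came from its own mouse, the p-values below describe sample-to-sample spread only. For limma that spread is shared over all 16 arrays, those of imiquimod ears included. Whole ear flaps hold epidermis, dermis, cartilage, fat and muscle, so fewer cells of a type and less RNA per cell cannot be told apart.

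MicroRNA miR-146a is induced by NF-kB and lowers the adaptors Irak1 and Traf6, which pass the signal of Toll-like and IL-1 receptors on to NF-kB, and so it acts as a brake in myeloid cells, T cells and keratinocytes. Keratinocytes in unstressed skin make few stress keratins, small proline-rich proteins and defensins. After wounding, friction or inflammation they switch these genes on together with IL-1 and IL-36 cytokines.

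The missing microRNA is shown beside its family member miR-146b, with the seed (bases 2 to 8, which pair with targets) in capitals, because a second microRNA with the same seed remained in the genome.
mmu-miR-146a-5p: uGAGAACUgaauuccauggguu
mmu-miR-146b-5p: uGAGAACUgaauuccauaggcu
These RefSeq sequences (GRCm38.p6) lie at chr11:43374435-43374456 on the minus strand and chr19:46342790-46342811 on the plus strand. They are identical at 20 of 22 positions, and they were the 2 of 1738 mature mouse microRNAs in the RefSeq table that carry this seed. The precursor, in which capitals mark the mature strand, spans chr11:43374397-43374461 on the minus strand.
mmu-mir-146a hairpin: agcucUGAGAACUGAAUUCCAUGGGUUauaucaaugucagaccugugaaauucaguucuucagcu

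On the array the gene of miR-146a (symbol Mir146) gave log2 values of 1.78, 1.81, 1.79 and 1.83 in knockout vehicle ears, against 1.83, 1.62, 2.16 and 1.85 in wild-type vehicle ears. The groups overlapped, and the mean difference of -0.06 lay within their spread (two-sided exact permutation p = 0.629, where 4 against 4 arrays allow no p below 0.0286). Wild-type values lay as near the floor of the array as knockout values, at the 0.569th percentile of genes over all arrays, so the probe set cannot serve as a check of genotype. The gene of miR-146b (Mir146b) averaged 2.58 ± 0.09 in knockout and 2.50 ± 0.20 in wild-type vehicle ears (SD, n = 4 each, exact permutation p = 0.543). Neither gene therefore showed a difference that these probes could resolve.

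The files hold log2 values for 41345 transcript clusters, of which 30943 genes with a symbol were tested, 1 cluster each. All 12 epidermal keratins on the array lay above the median gene (3.20), as did all but 2 of 53 skeletal muscle genes and all but 3 of 22 cartilage genes, which are tissues of an ear. The 4 knockout vehicle arrays were less alike (mean r with their own group 0.976 to 0.979 across genes) than the 4 wild-type vehicle arrays (0.983 to 0.985). Knockout array 3 stood apart on the second principal component of the 8 vehicle arrays (44.5, against -12.1 to 1.9 on all other vehicle arrays) and had the lowest estimated array weight of all arrays (0.606). Muscle content varied as well: the mean of 53 contractile and calcium genes of skeletal muscle was 7.36, 7.56, 6.71 and 7.51 on knockout vehicle arrays 1 to 4, against 6.52, 6.85, 6.17 and 6.63 on wild-type vehicle arrays. Knockout arrays 1, 2 and 4 lay above all wild-type arrays, and knockout array 3 lay among them. With the muscle mean as a covariate, Cd59a was the 1 member of the 45 gene lists still called, so the main groups below are also given with that covariate and without knockout arrays 3 and 4. The covariate itself averaged 7.29 in knockout and 6.54 in wild-type vehicle ears, so this fit cannot fully separate muscle content from genotype. A call lost under it therefore does not show where a difference came from.

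In knockout vehicle ears 141 genes were called (limma, adjusted p under 0.05, which is 0.456% of the genes tested), 108 lower (0.349%) and 33 higher (0.107%). The lower genes were led by epidermal stress, envelope and defence genes, and the higher ones by clock, glucocorticoid-responsive and muscle genes. Differences of at least 2-fold were found in 40 of the lower and 5 of the higher genes, and the smallest called differences were 0.47 and 0.49 in size on the log2 scale. In 130 of the 141 called genes the knockout arrays did not overlap the wild-type arrays, while 2.42% of all genes had all 4 knockout arrays above and 3.57% had them all below. An unadjusted p under 0.05 was reached by 3763 of the 30943 genes tested (limma, both directions together). Unadjusted counts given for lists below are to be read beside this number. The count of 141 called genes fell to 15 when only the 8 vehicle arrays were fitted and to 2 with the muscle mean as a covariate. It was 37 without wild-type array 1, 38 without wild-type array 3, 47 without knockout array 4, 79 without knockout array 2, 83 without wild-type array 2 and 474 without knockout array 3. For Krt6a the SD was 1.85 in knockout and 0.32 in wild-type vehicle ears, but 0.12 in knockout and 0.15 in wild-type imiquimod ears. The shared spread thus understates the scatter of its knockout vehicle values. With only the vehicle arrays Krt6a, Lce3d, Defb3, Rptn, Slpi, Dbp, Tsc22d3 and Mylpf, described below, lost their calls. Sprr1a, Defb4, Cd59a, Entpd4 and Atp1b2 kept theirs.

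Of 7 stress keratins and connexins, Krt6a and Gjb2 were lower in knockout vehicle ears. Krt6a, a keratin of wounded and thickened epidermis, gave 7.42, 7.63, 9.36 and 4.88 in knockout ears, against 10.07, 9.64, 10.41 and 9.98 in wild-type ears. The groups did not overlap, but knockout array 3 came close to the wild-type range and knockout array 4 lay far below the others. The difference was -2.70 ± 0.55 (6.51-fold lower, ± SE, limma adjusted p = 0.0326), the largest of all called genes. Gjb2, the gap-junction protein connexin 26 of proliferating epidermis, was lower by 1.49 ± 0.28 (adjusted p = 0.0201). Krt6b (-2.31, limma adjusted p = 0.0572), Krt16 (-1.45, 0.0572) and Krt17 (-1.15, 0.101) did not pass, and all 7 differences were below 0 with a median of -1.45, against 0.01 for all genes. Without knockout arrays 3 and 4, 5 of 7 were called lower (median -1.33), and with the muscle covariate none was (median -0.77). Leaving out 1 array gave 5 called without knockout array 3, 4 without knockout array 4, 1 without knockout array 1 or wild-type array 2 or 4, and 0 without knockout array 2 or wild-type array 1 or 3. Krt6a kept its call in 9 of 18 alternative fits.

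**Figure D1:**
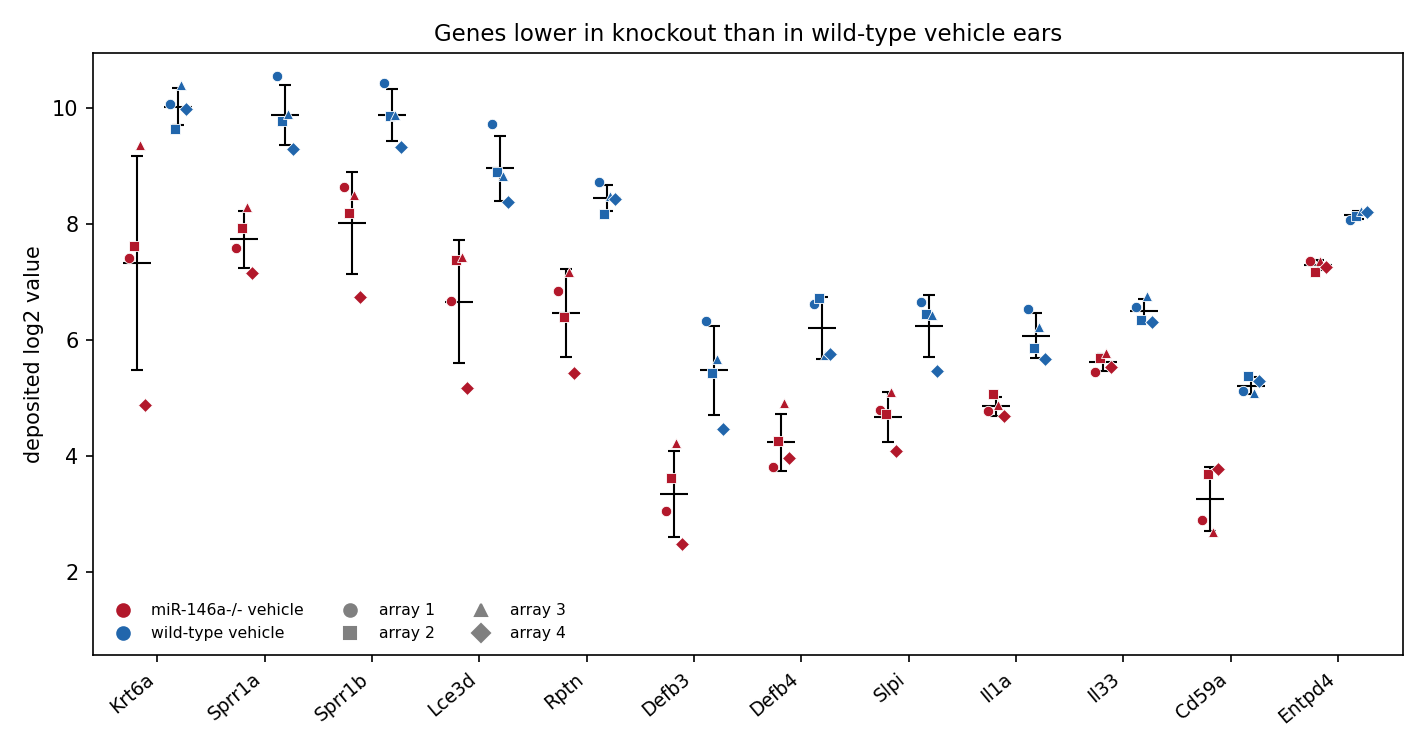
Deposited log2 values (y axis) of 12 genes lower in knockout vehicle ears, one point per array, with knockout arrays (red) left of wild-type arrays (blue); bars are the mean ± SD of 4 arrays and marker shape gives the array number. No gene overlapped between the groups, and Krt6a spread from 4.88 to 9.36 in knockout ears, against 9.64 to 10.41 in wild-type ears.

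Small proline-rich proteins, precursors that are cross-linked into the cornified envelope of keratinocytes, were lower in 4 of 13 cases. Sprr1a gave 7.59, 7.93, 8.30 and 7.15 in knockout ears, against 10.55, 9.78, 9.90 and 9.30 in wild-type ears. Every knockout array lay at least 1 log2 unit below every wild-type array, and the difference was -2.14 ± 0.24 (4.41-fold lower, limma adjusted p = 5.17e-04). Sprr1b gave 8.64, 8.20, 8.51 and 6.74 in knockout ears, against 10.43, 9.86, 9.89 and 9.34 in wild-type ears (-1.86 ± 0.30, limma adjusted p = 0.00918). Here too no array overlapped, with knockout array 4 lowest. Sprr2e (-2.08) and Sprr2g (-1.17) were the other 2 called, while Sprr3 (0.04), a protein of the oral and oesophageal lining, was the single member not below 0. The median of the 13 was -0.87. It was -0.89 with 6 called without knockout arrays 3 and 4, and -0.49 with none called under the muscle covariate. Without knockout array 3, 7 were called, and without knockout array 1, 2 or 4 or wild-type array 1 or 3, 2 were. Probe sets of this family can share sequence, so its members are not independent.

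The promoters of the pair called with the smallest adjusted p in this family are shown because 9 of 13 promoters of the family (69.2%) held the letters TGANTCA. Here N is any base, so the letters are a loose form of the binding motif of the stress-activated factor AP-1. They were searched on both strands of the 250 bases before each RefSeq start (GRCm38.p6) and are in capitals.
Sprr1a promoter: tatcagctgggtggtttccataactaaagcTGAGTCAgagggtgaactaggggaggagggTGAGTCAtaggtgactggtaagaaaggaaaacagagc
Sprr1b promoter: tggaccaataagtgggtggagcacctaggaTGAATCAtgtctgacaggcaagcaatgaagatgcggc
The Sprr1a stretch (chr3:92485961-92486057, minus strand) holds 2 matches, and the Sprr1b stretch (chr3:92438854-92438920, minus strand) holds 1, 111 bases before the start. The letters TGANTCA stood in 14 of the 73 genes called lower that have a promoter in the table (19.2%) and in 1 of the 22 called higher (4.55%), against 2113 of all 27025 promoters (7.82%). A match is a description of letters, and the promoters of this family are related in sequence.

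Late cornified envelope genes were counted by group. In group 3, which is switched on in injured and inflamed human skin, 5 of 6 genes were lower and the median was -1.50. Lce3d gave 6.67, 7.38, 7.44 and 5.17 in knockout ears, against 9.73, 8.90, 8.84 and 8.39 in wild-type ears (-2.30 ± 0.36, 4.92-fold lower, limma adjusted p = 0.00748). Lce3c gave 7.81, 7.74, 8.06 and 6.77 in knockout ears, against 9.55, 9.13, 8.78 and 8.79 in wild-type ears (-1.47 ± 0.22, limma adjusted p = 0.00513). For both genes the groups did not overlap and knockout array 4 was lowest. Lce3f read 2.64 ± 0.11 in knockout ears, below the median gene, so its difference of -1.72 from 4.35 ± 0.59 in wild-type ears (SD, n = 4 each) is limited by background. Group 1, expressed in resting epidermis, had 0 of 14 genes called and a median of -0.10 (limma, 1 of 14 at an unadjusted p under 0.05, lower). Without knockout arrays 3 and 4, 3 of the 6 group 3 genes were called (median -1.46), and the median with the muscle covariate was -1.22 with none called. Without knockout array 1 or 4 or wild-type array 1, 2 or 3 the count was 2, and without knockout array 2 it was 3.

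Other parts of the epidermal barrier were lower in smaller numbers. Among 21 cornified envelope precursors and fused-type S100 proteins 3 passed: Rptn, which encodes the envelope protein repetin (-1.99 ± 0.28, limma adjusted p = 0.00331), Cnfn, which encodes cornifelin (-0.78), and the cross-linking transglutaminase Tgm1 (-0.56). Rptn gave 6.85, 6.40, 7.18 and 5.44 in knockout ears, against 8.73, 8.17, 8.48 and 8.44 in wild-type ears, without overlap. Only 1 of the 21 was called without knockout array 2 or 4 or wild-type array 1, 2 or 3, or without knockout arrays 3 and 4 together (median -0.21, against -0.32 with all arrays), and none with the muscle covariate (median -0.29). The main late-differentiation genes Lor (0.08), Flg (-0.21) and Flg2 (0.16) did not pass. Of the structural keratins, Krt5 (-0.16), Krt14 (-0.34), Krt1 (-0.32) and Krt10 (-0.03) did not pass, and their list had a median of -0.13 with 1 of 12 called, Krt15, which was higher. Among called genes chosen after their values were seen, the kallikrein proteases that free corneocytes were lower, with Klk10 at -1.40, Klk9 at -0.98 and Klk7 at -0.56 beside Klk6 at -1.52 (limma adjusted p = 0.0283). So were lipid genes of the barrier, the ceramide synthase Cers3 (-0.74), the glucosylceramide synthase Ugcg (-0.69) and Nipal4 (-0.68), a gene of inherited ichthyosis in humans.

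Antimicrobial genes formed another lower group, with 5 of 20 called and a median of -0.64. The beta-defensin Defb4 gave 3.81, 4.26, 4.91 and 3.96 in knockout ears, against 6.62, 6.72, 5.74 and 5.76 in wild-type ears (-1.98 ± 0.25, limma adjusted p = 0.00160). Defb3 gave 3.05, 3.63, 4.22 and 2.48 in knockout ears, against 6.33, 5.43, 5.68 and 4.47 in wild-type ears (-2.13 ± 0.32, limma adjusted p = 0.00513). Both genes separated the groups, and Defb3 on knockout arrays 1 and 4 fell below the median gene. Slpi, a secreted inhibitor of neutrophil proteases, was lower by 1.58 ± 0.22, and the peptidoglycan recognition proteins Pglyrp3 and Pglyrp4 by 1.18 and 1.17. S100a8 (-1.48, limma adjusted p = 0.104) and S100a9 (-1.37, 0.0542), which keratinocytes and neutrophils both make, did not pass. For S100a8 knockout array 3 at 8.24 lay within the wild-type range of 7.91 to 8.35. Without knockout arrays 3 and 4 the list had 7 called (median -0.68), and with the muscle covariate none (median -0.49). It had 10 without knockout array 3, and 3 without knockout array 4 or wild-type array 1 or 3.

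Cytokine genes of the epidermis were lower in 5 of 17 IL-1 and IL-36 family members, all of them ligands. Il1a, the alarm cytokine stored in keratinocytes, gave 4.78, 5.07, 4.88 and 4.70 in knockout ears, against 6.54, 5.87, 6.23 and 5.68 in wild-type ears (-1.22 ± 0.16, 2.33-fold lower, limma adjusted p = 0.00160). Il33, a nuclear alarmin, gave 5.45, 5.70, 5.78 and 5.54 in knockout ears, against 6.57, 6.35, 6.76 and 6.32 in wild-type ears (-0.88 ± 0.12, limma adjusted p = 0.00317). In both genes the 4 knockout arrays were tight and lay below every wild-type array. The IL-36 ligands Il1f6, Il1f8 and Il1f9, now Il36a, Il36b and Il36g, were lower by 0.92, 0.80 and 0.71. Il1b spread from 2.47 to 6.80 in knockout ears and from 4.64 to 8.54 in wild-type ears, so its difference of -2.18 ± 0.73 did not pass (limma adjusted p = 0.201). The receptors Il1r1 (-0.02), Il1rl2 (-0.29) and Il1rl1 (0.09) and the antagonist Il1rn (-0.38) did not pass either. The median of the list was -0.29, -0.28 with 2 called without knockout arrays 3 and 4, and -0.25 with none called under the muscle covariate. Called members numbered 2 without knockout array 2 or 4 or wild-type array 1 or 2, and 3 without wild-type array 3.

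Neighbouring signal pathways held few called genes. Of 11 EGF receptor genes and ligands, epigen (Epgn) was lower by 1.40 ± 0.27 (limma adjusted p = 0.0261), and Hbegf (-1.19, 0.0572) and Areg (-0.72, 0.377) did not pass. Of 26 antioxidant and glutathione genes, the glutathione transferase Gsta4 (-1.74) and the cystine importer Slc7a11 (-1.44) were lower and Nqo1 (-0.53) did not pass. Of 22 genes of the IL-17 and IL-23 axis 1 was called, the chemokine Ccl20, described below. The 12 neutrophil chemoattractants had a median of -0.50 with none called (limma, 4 lower at an unadjusted p under 0.05), and Cxcl1 (-0.87) and Cxcl3 (-0.59) did not pass. Ptges, which makes prostaglandin E, and the adhesion receptor Cd44 were lower by 0.82 and 0.71 and were chosen after their values were seen.

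**Figure D2:**
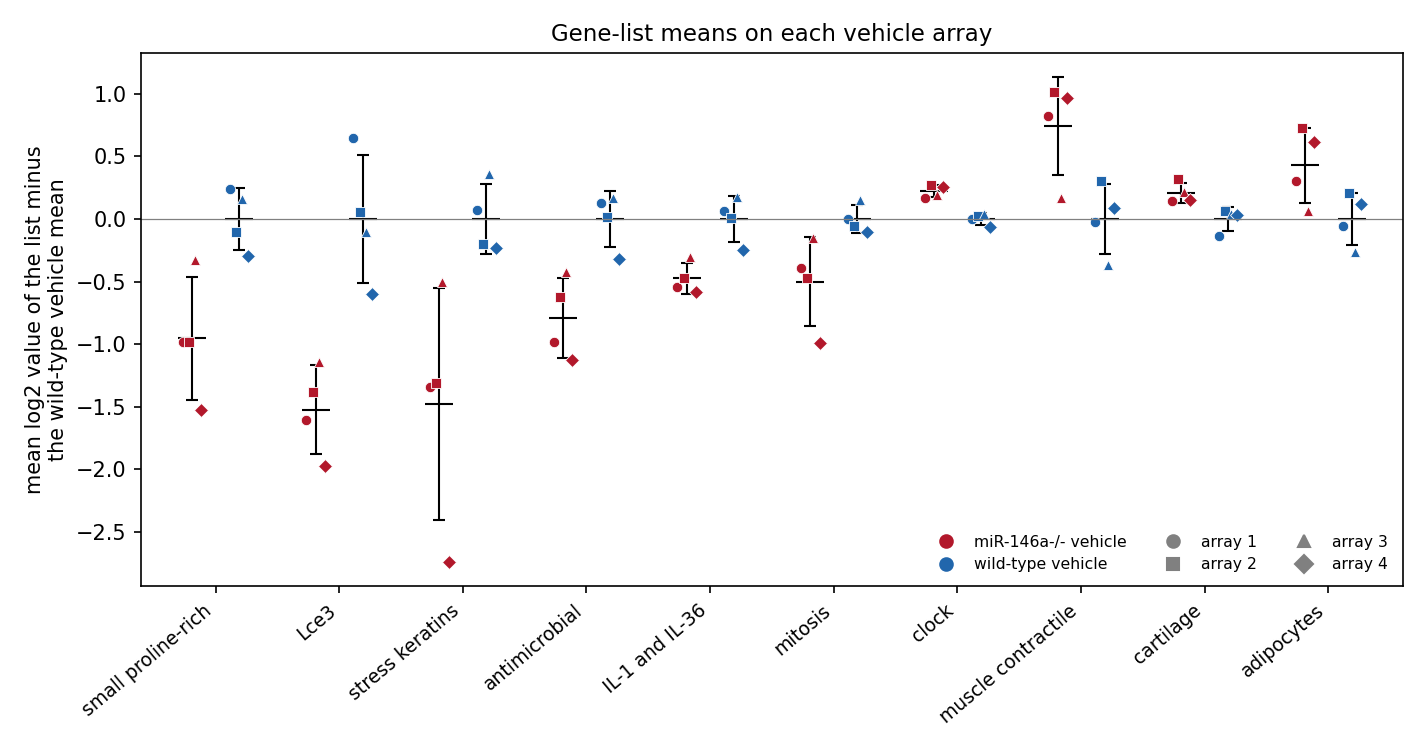
Mean log2 value of each gene list on each vehicle array, minus the mean of the 4 wild-type vehicle arrays (y axis); knockout arrays (red) stand left of wild-type arrays (blue), bars are the mean ± SD of 4 arrays and marker shape gives the array number. Knockout array 4 was lowest and knockout array 3 nearest to wild type in the small proline-rich, Lce3, stress keratin, antimicrobial, IL-1 and IL-36 and mitosis lists, and knockout array 3 was also nearest in the muscle and adipocyte lists.

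Few genes of the cell-cycle lists were called. All 30 genes of mitosis and G2 had differences below 0 (median -0.50), and in 14 of them every knockout array lay below every wild-type array. The kinase Aurkb was the 1 that passed, with 4.86, 4.79, 5.61 and 4.68 in knockout ears, against 5.81, 5.79, 5.82 and 5.88 in wild-type ears (-0.84 ± 0.17, limma adjusted p = 0.0302). Wild-type arrays were nearly identical for Aurkb, and knockout array 3 came closest to them. Of 32 S-phase genes 31 were below 0 (median -0.30) and the replication factor Mcm10 was called (-0.67 ± 0.13, limma adjusted p = 0.0285). The mitosis median was -0.40 without knockout arrays 3 and 4 and -0.16 with the muscle covariate, and the S-phase median was -0.27 and -0.03. Without knockout array 3, 6 mitosis and 4 S-phase genes were called, and 0 of either without any other single vehicle array. Off these lists, and chosen after their values were seen, the kinesin Kif18b (-0.76, limma adjusted p = 0.0342) and the centromere gene Cenpq (-0.65, 0.0384) were called lower without overlap. Knockout values of Cenpq lay near the median gene. Called genes chosen in the same way included the ribosome-assembly factors of the nucleolus Nop58 (-0.73 ± 0.12), Ddx21 (-0.69 ± 0.13), Gnl3 (-0.68 ± 0.12) and Nifk (-0.61 ± 0.13). Nop58 gave 6.86, 6.83, 7.17 and 6.71 in knockout ears, against 7.83, 7.60, 7.59 and 7.48 in wild-type ears.

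Circadian clock genes differed in both directions, with 5 higher and 1 lower of 25. The clock works as a loop in which Clock and Arntl (now Bmal1) switch on Dbp and the Per, Cry and Nr1d genes. Products of the Per, Cry and Nr1d genes then repress the loop, so activator and target peak at different hours. Dbp, an output factor that peaks late in the rest phase, gave 7.93, 8.31, 7.83 and 7.90 in knockout ears, against 6.78, 7.32, 6.22 and 6.70 in wild-type ears (1.24 ± 0.20, 2.36-fold higher, limma adjusted p = 0.00963). Per1 gave 7.44, 7.53, 7.53 and 7.38 in knockout ears, against 6.65, 6.84, 6.92 and 6.57 in wild-type ears (0.73 ± 0.15, limma adjusted p = 0.0341). Neither gene overlapped between the groups. Per2 (0.67), Nr1d2 (0.66) and the repressor Bhlhe41 (0.74) were higher too. The activator Arntl ran opposite, with 6.16, 5.86, 5.96 and 6.02 in knockout ears, against 6.91, 6.45, 6.90 and 6.68 in wild-type ears (-0.74 ± 0.14, limma adjusted p = 0.0208). Targets that did not pass lay above 0, among them Per3 (0.49), Tef (0.56), Nr1d1 (0.52) and Ciart (0.53), and Clock (-0.34) and Nfil3 (-0.45) lay below 0. The list median was 0.20, 0.22 with 2 called without knockout arrays 3 and 4, and 0.26 with none called under the muscle covariate. Higher calls numbered 1 without knockout array 2 or wild-type array 1, and 2 without knockout array 4 or wild-type array 2, 3 or 4, and Arntl lost its call without knockout array 2 or 4 or wild-type array 1 or 3.

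Glucocorticoid-responsive genes overlapped with this group, since Per1 is on both lists, and 4 of 20 were higher. Tsc22d3, the glucocorticoid-induced leucine zipper, gave 4.84, 4.96, 5.26 and 5.10 in knockout ears, against 4.34, 4.31, 3.88 and 4.19 in wild-type ears (0.86 ± 0.14, limma adjusted p = 0.00963). The transcription factors Klf9 (0.80 ± 0.17) and Klf15 (0.89 ± 0.16) were higher as well, and on single arrays Klf15 reached the same value in both groups, 4.40. Zbtb16 (1.23 ± 0.27) missed the threshold (limma adjusted p = 0.0536), although its knockout arrays of 5.32, 6.20, 5.20 and 5.91 all lay above the wild-type arrays of 4.07, 4.71, 4.43 and 4.51. Other classic responders did not pass: Fkbp5 (0.42), Sgk1 (-0.10) and Mt2 (-0.57). Of the 20 differences 11 were above 0 and 9 below. At an unadjusted p under 0.05 (limma) 5 were higher and 6 lower, so the list as a whole went both ways. The median of the 20 was 0.11, and with the muscle covariate it was 0.06 with none called. Without knockout arrays 3 and 4, 1 of the list was called, as it was without knockout array 2 or 4 or wild-type array 2 or 3 alone, and 2 were without knockout array 1 or wild-type array 1 or 4.

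**Figure D3:**
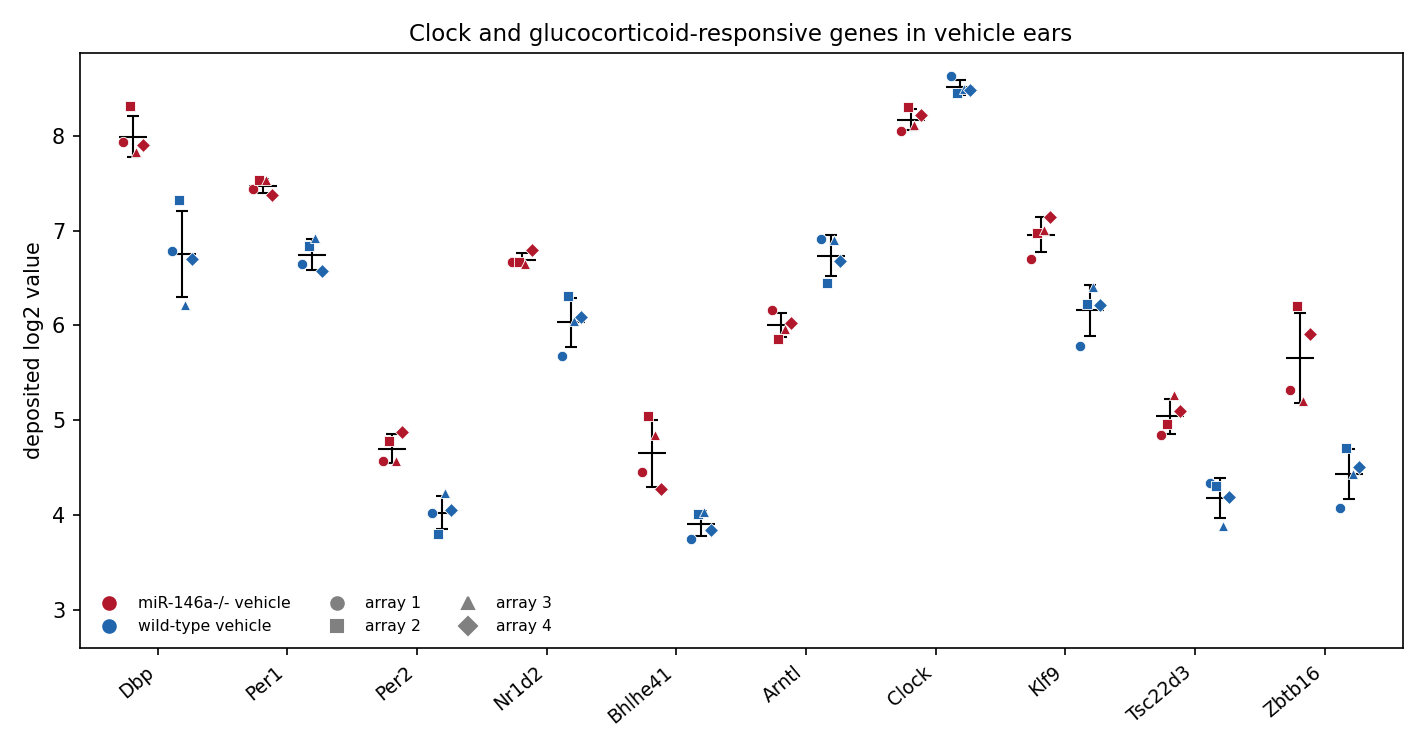
Deposited log2 values (y axis) of clock and glucocorticoid-responsive genes on each vehicle array, with knockout arrays (red) left of wild-type arrays (blue); bars are the mean ± SD of 4 arrays. Dbp, Per1, Per2, Nr1d2, Bhlhe41, Klf9, Tsc22d3 and Zbtb16 lay higher on all 4 knockout arrays and Arntl and Clock lower; Clock and Zbtb16 did not pass the test.

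The E-box CACGTG, the site that Clock and Arntl bind, is shown in the promoters of Per1 and Bhlhe41, the called clock genes in which a match was found. No match was found for the other called clock genes, Dbp, Per2, Nr1d2 and Arntl, and not every clock gene had a promoter to search.
Per1 promoter: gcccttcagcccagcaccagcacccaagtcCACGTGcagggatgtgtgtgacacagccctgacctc
Bhlhe41 promoter: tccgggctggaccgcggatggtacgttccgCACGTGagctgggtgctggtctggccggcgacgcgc
The Per1 stretch is chr11:69098753-69098818 (plus strand, motif 166 bases before the RefSeq start) and the Bhlhe41 stretch is chr6:145865538-145865603 (minus strand, 153 bases before it), both in GRCm38.p6. The motif, searched on both strands of 250 bases, occurred in 5 of 19 clock promoters in the table (26.3%), in 5 of 22 genes called higher (22.7%) and in 4 of 73 called lower (5.48%), against 1854 of all promoters (6.86%). The 5 called higher were Alad, Bhlhe41, Klf15, Mxd4 and Per1. The D-box TTATGTAA, which Dbp itself binds, stood in 1 of the 19 clock promoters, that of Per3, and in 0.977% of all promoters.

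Skeletal muscle genes were higher in 6 of 53 cases: Smtnl1, Mylpf, Tmod4, Mustn1, Nexn and Myh3. Mylpf, the regulatory light chain of fast muscle, gave 9.49, 9.13, 8.64 and 9.40 in knockout ears, against 8.20, 8.40, 7.74 and 8.29 in wild-type ears (1.01 ± 0.20, limma adjusted p = 0.0272). Smtnl1, a smoothelin-like protein of muscle, gave 6.17, 6.15, 5.52 and 6.35 in knockout ears, against 4.96, 5.37, 4.70 and 4.68 in wild-type ears (1.12 ± 0.19, limma adjusted p = 0.0135). The groups did not overlap in either gene, and array 3 was the lowest knockout array in both. In all, 52 of the 53 differences were above 0, with a median of 0.73, and 48 had an unadjusted p under 0.05. The myogenic regulators Myod1 (0.00), Myog (-0.12) and Pax7 (-0.06) did not pass. The list had 29 called without knockout array 3, 2 without knockout array 2 or wild-type array 1, 0 without knockout array 4 or wild-type array 3, and 9 (median 0.97) without knockout arrays 3 and 4. Adipocyte genes had a median of 0.53 with none of 24 called (limma, 12 higher at an unadjusted p under 0.05). That median was 0.66 without knockout arrays 3 and 4 and 0.01 with the muscle covariate. The muscle median itself was -0.03 with the covariate, near 0 by construction, since the covariate is the mean of the same 53 genes. In cartilage genes, with a median of 0.25 and none of 22 called (4 higher and 1 lower unadjusted), the 4 knockout list means lay above the 4 wild-type ones.

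Other genes that were higher belonged to no common list. Alad, the second enzyme of haem synthesis, gave 6.33, 5.84, 5.49 and 6.11 in knockout ears, against 4.71, 4.85, 4.41 and 5.04 in wild-type ears (1.19 ± 0.22, limma adjusted p = 0.0201). No array overlapped, and none of the other 12 genes of haem synthesis and breakdown was called. Atp1b2, a subunit of the sodium pump, was higher by 0.92 ± 0.13 (limma adjusted p = 0.00301), and Npr3, a clearance receptor of natriuretic peptides, by 1.02 ± 0.22 (0.0488). Npr3 kept its call in 6 of 18 alternatives, losing it without knockout array 2 or 4 or any 1 wild-type array, and Alad and Krt15 kept theirs in 12. Krt15, a keratin of basal and hair follicle stem cells, gave 8.99, 8.90, 9.16 and 9.34 in knockout ears, against 7.96, 8.38, 8.37 and 8.61 in wild-type ears (0.77 ± 0.14, limma adjusted p = 0.0179). It was the 1 of 18 follicle stem cell and outer sheath genes that passed, and Lgr5 (0.15) and Cd34 (0.39) did not.

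**Figure D4:**
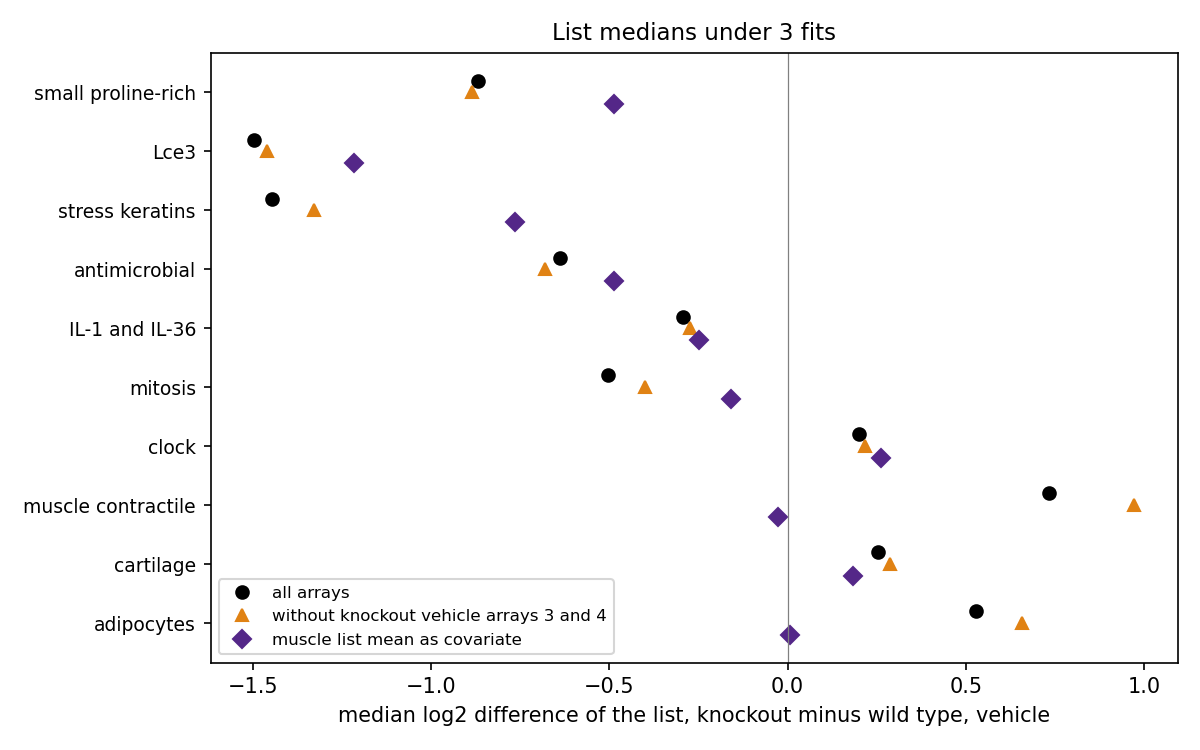
Median log2 difference, knockout minus wild type with vehicle (x axis), of each gene list in 3 fits: all arrays, without knockout vehicle arrays 3 and 4, and with the muscle list mean as a covariate. With the covariate the stress keratin median was -0.77 (-1.45 with all arrays and no covariate), the mitosis median -0.16 (-0.50) and the clock median 0.26 (0.20).

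Immune cell and NF-kB lists held almost no called genes. Averaged over all arrays, many members lay at or below the median gene, where background limits any difference. These were 11 of 12 B cell, 15 of 23 T and NK cell, 18 of 39 interferon-stimulated and 8 of 23 Langerhans and dendritic cell genes. So were 6 of 13 mast cell and 7 of 26 neutrophil genes, but only 2 of 28 macrophage and 1 of 27 NF-kB genes. Irak1 averaged 5.98 ± 0.15 in knockout and 5.99 ± 0.20 in wild-type vehicle ears, and Traf6 averaged 5.53 ± 0.11 in knockout and 5.70 ± 0.15 in wild-type ears (SD, n = 4 each, limma adjusted p = 0.985 and 0.549). None of 31 reported miR-146a targets was called (limma, 3 higher and 4 lower at an unadjusted p under 0.05), 19 of them lay below 0, and the median was -0.03. Over all 30943 genes, 3763 reached that unadjusted threshold in either direction. None of 27 NF-kB subunits and feedback genes was called (1 higher and 7 lower unadjusted, median -0.13), with Bcl3 at -1.06 (adjusted p = 0.0882) and Tnfaip3 at -0.49. Without knockout array 3, 4 NF-kB genes and 4 neutrophil genes were called lower. Markers of macrophages (28 genes, median 0.07), neutrophils (26, -0.17), mast cells (13), Langerhans and dendritic cells (23, 0.20) and B cells (12) had none called either. At an unadjusted p under 0.05 the numbers higher and lower were 4 and 3 for macrophages, 0 and 7 for neutrophils, 1 and 1 for mast cells, 4 and 1 for Langerhans and dendritic cells and 1 and 0 for B cells (limma). Interferon-stimulated genes had none of 39 called (1 higher and 4 lower unadjusted), and their list mean was 3.50 ± 0.15 in knockout and 3.59 ± 0.16 in wild-type ears (SD, n = 4 each). Among 23 T and NK cell genes Tcrg-V5 (now Trgv5), the receptor segment of epidermal gamma-delta T cells, was lower: it gave 1.99, 2.63, 3.15 and 2.41 in knockout ears, against 3.56, 3.51, 3.69 and 3.56 in wild-type ears (-1.04 ± 0.19, limma adjusted p = 0.0201). All its knockout values lay below the median gene, so the size is limited by background, and Cd3g (-0.27) and Skint1 (-0.18) did not pass.

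The imiquimod arrays gave the same genotype contrast in other samples, where 37 genes were called (0.12% of genes), 6 of them higher (0.0194%) and 31 lower (0.1%). Of the vehicle calls 7 were called in the same direction with imiquimod, which is 4.96% of the vehicle calls and 18.9% of the imiquimod calls. Cd59a, which shields cells from complement lysis, gave 2.89, 3.69, 2.69 and 3.77 in knockout vehicle ears, against 5.12, 5.38, 5.08 and 5.29 in wild-type vehicle ears (-1.96 ± 0.21, limma adjusted p = 5.17e-04). With imiquimod its difference was -2.35 (limma adjusted p = 5.24e-05), and its relative Cd59b read -0.04 with vehicle. Knockout values of Cd59a lay near the median gene, so background limits these sizes. Entpd4, a nucleotide-cleaving enzyme of intracellular membranes, gave 7.36, 7.18, 7.36 and 7.26 in knockout ears, against 8.08, 8.14, 8.23 and 8.21 in wild-type ears (-0.88 ± 0.10, limma adjusted p = 5.17e-04) and -0.94 with imiquimod. It is one of 6 genes reported to differ between C57BL/6 substrains, none of which other than Entpd4 was called. Nnt, another of them, read 0.54 (limma adjusted p = 0.15).

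Ccl20, the chemokine that draws Ccr6-bearing cells into the epidermis, gave 4.74, 4.69, 4.69 and 4.53 in knockout vehicle ears, against 5.60, 5.47, 5.56 and 5.17 in wild-type vehicle ears (-0.79 ± 0.16, limma adjusted p = 0.0354). Its difference with imiquimod was -1.02 (limma adjusted p = 0.0148), and Ccl20 lost its vehicle call in 9 of 18 alternatives. Lyrm7, an assembly factor of the respiratory chain, was higher by 0.57 ± 0.12 with vehicle and by 1.02 with imiquimod, and kept its vehicle call in 4 of 18 alternatives. The other 3 in both contrasts were predicted genes (Gm10002, Gm20236 and Gm21464), all lower. Called in opposite directions were 3 genes: Per1 (-0.79 with imiquimod), Krt15 (-0.72) and the retinoid-binding protein Crabp2 (-0.57 with vehicle, 0.66 with imiquimod).

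Most of the vehicle calls had the opposite sign in imiquimod-treated ears. Of the 108 genes lower with vehicle 90 had a positive difference with imiquimod (median 0.23), and of the 33 higher 29 had a negative one (median -0.31), while all genes had a median of 0.01. The change of the genotype difference between treatments was itself called (limma interaction, 387 genes, 1.25%) for 106 of the 141, 79 lower and 27 higher. The vehicle arrays stand in both the vehicle difference and this change, so the values were not independent. Sprr1a illustrates it: means were 7.74 in knockout and 9.88 in wild-type vehicle ears, and 10.83 in knockout and 10.49 in wild-type imiquimod ears. No gene was called for this change when the muscle mean was a covariate (limma, 2362 at an unadjusted p under 0.05).

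**Figure D5:**
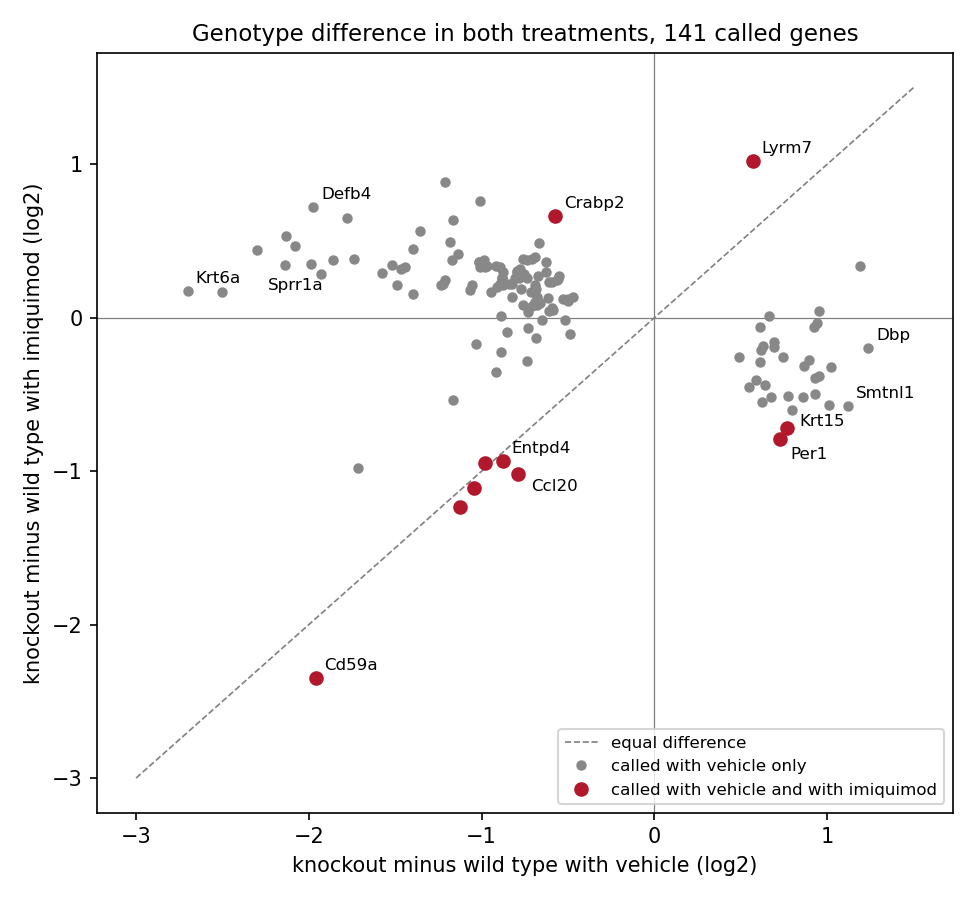
Knockout minus wild-type log2 difference with vehicle (x axis) and with imiquimod (y axis) for the 141 genes called with vehicle; red points were called in both treatments and the dashed line marks equal differences. Cd59a, Entpd4, Ccl20 and Lyrm7 lay near the line or beyond it on the same side, and most other genes lay near 0 or on the opposite side with imiquimod.

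Genes beside the deleted microRNA were examined because the flanks of a targeted gene can carry a different parental haplotype. None of the 20 nearest protein-coding genes, 10 on each side on chromosome 11, was called with vehicle or imiquimod. With vehicle 4 of them had an unadjusted p under 0.05 (limma), against 3763 of all 30943 genes. Vehicle differences of the 20 neighbours ran from -0.67 for Pttg1, the immediate neighbour and a regulator of chromosome separation (limma adjusted p = 0.0538), to 0.39 for Ccng1. Chromosome 3, which carries the small proline-rich and late cornified envelope clusters, held 15 genes called lower and 2 higher of 1288 tested (1.32%).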

How the data were processed

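Total RNA of ear flaps was hybridised to Affymetrix Mouse Gene ST 2.1 arrays. The deposited values are log2 signals per transcript cluster, for which the submitters' processing notes name Affymetrix Expression Console. How probes were summarised, and on which genome build, was not stated there. These values run from 1.25 to 13.29, array medians lie at 3.21 to 3.28, and nothing further was done to scale them. Symbols came from the annotation sheet that the authors deposited, and 25466 of them are current and 1356 are synonyms in the RefSeq table of GRCm38.p6. Where several of the 32471 clusters with a symbol shared it (909 genes), the one highest on average across the series stood for the gene, which gave 30943 genes, dim ones included.

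The 16 arrays entered 1 limma model (version 3.58.1 in R 4.3.3, lmFit then eBayes) with a mean for each of 4 groups, leaving 12 residual and adding 6.18 prior degrees of freedom. P-values were adjusted by Benjamini-Hochberg over all genes, and adjusted p under 0.05 is a call. Every adjusted p comes from limma, and ± after a log2 difference is its standard error. Mir146 and Mir146b, 4 against 4 arrays, were compared by exact permutation tests. Deviations of same-numbered arrays of the 2 genotypes correlated at 0.055 to 0.105, and those of arrays with other numbers at -0.072 to 0.044. The labels state no pairing, so the numbers were not taken as pairs in the reported fit, and the array number as a block was an alternative. In simulated data with 200 changed genes of 30943, the vehicle contrast recovered 47 of 50 rises of 1 and 7 of 50 rises of 0.5 on the log2 scale. It also called 11 of 30743 unchanged genes. The simulation gave each gene the same spread on every array and made genes independent. The real knockout vehicle arrays were less alike and tissue content varied, so this recovery does not measure the sensitivity of the real contrast. For arrays, precision is set by their number.

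The genes described are the 15 largest rises and 15 largest falls among calls whose groups did not overlap, predicted and family names not ranked. Also described are genes called the same way with vehicle and with imiquimod, up to 4 members of each of 45 lists, and always Mir146, Irak1 and Traf6. Other list members that are named, and genes marked so in the text, were picked once their values were known. The comparison, the lists, the rule and the alternatives were chosen with earlier results of these data known. Alternatives were a filter on dim genes, quantile normalization, median centring, trend and robust options, array weights, the compared groups alone, the array number as a block, every cluster, the muscle mean as a covariate, and fits without single arrays or without knockout vehicle arrays 3 and 4.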

Additional observations from a re-analysis of the deposited data

Results flagged for a closer look

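For 25 of the genes described the genotype difference changed between treatments (limma interaction, adjusted p under 0.05), given as the difference with imiquimod minus the difference with vehicle on the log2 scale. Among genes higher in knockout vehicle ears the change was -1.44 for Dbp, -1.70 for Smtnl1, -1.34 for Npr3, -1.58 for Mylpf, -1.33 for Tmod4, -0.98 for Nexn, -1.43 for Myh3 and -0.98 for Atp1b2. It was -1.38 for Tsc22d3, -1.40 for Klf9, -1.29 for Osbpl6, -1.49 for Krt15 and -1.0 for Bhlhe41. Among genes lower in knockout vehicle ears it was 2.74 for Lce3d, 2.48 for Sprr1a, 2.67 for Defb3, 2.34 for Rptn, 2.69 for Defb4, 2.23 for Sprr1b and 2.12 for Gsta4. It was 1.86 for Slpi, 1.86 for Klk6, 1.70 for Gjb2, 1.78 for Lce3c and 1.77 for Slc7a11. All are opposite in sign to the vehicle difference, which enters the change itself.

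A single array lay far from the other 3 of its group in 4 of the 162 groups checked, where chance alone marks about 1 in 20. Irak1 was highest on knockout vehicle array 4 (6.20), the cornified envelope list mean on knockout vehicle array 1 (8.16) and the NF-kB list mean on knockout vehicle array 3 (5.66). The glucocorticoid-responsive list mean was lowest on wild-type vehicle array 4 (5.44).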

How the results depend on the processing

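The count of 141 genes called with vehicle (33 higher, 108 lower) became 352 (109 and 243) with a filter on dim genes that left 16792, 343 (84 and 259) with the trend and robust options of eBayes, 237 (67 and 170) with array weights, 15 (2 and 13, 14 of them shared) with only the compared groups, and 2 (1 and 1) with the muscle mean as a covariate. The array number as a replicate block gave 240 (77 and 163), 135 of them shared. Every vehicle array correlated best with its own number in the other genotype, a hint from the data and not the design. Leaving out 1 array at a time gave 37 to 474 calls, 6 to 200 higher and 29 to 274 lower. Quantile normalization (145), median centring (159), every cluster tested (131) and leaving out knockout vehicle arrays 3 and 4 (125, of which 63 were shared) stayed within 1.5 times. The 37 genes called with imiquimod became 85 with trend and robust options, 11 with only the compared groups, 15 with the covariate and 7 to 80 leaving out 1 array at a time. The 387 genes called for the change between treatments became 710 with the filter, 652 with trend and robust options and 0 with the covariate. The cause of these moves was not tested beyond fewer genes or fewer arrays entering the fit. Among the 186 genes that the rule covers, no difference called in the reported fit changed direction. Of these 186 genes 22, none of them called in the reported fit, changed sign in at least 1 alternative. Mir146 (-0.14 to 0.05) and Irak1 (-0.10 to 0.07) were among the 22, and 2 of the 22 were called in some fit. Of the 186 genes 46 lost their call with the muscle covariate and 40 with only the compared groups. Cd59a kept its call in all 18 alternatives, and Sprr1a, Defb4, Entpd4 and Atp1b2 in 17. Values near the median gene limit differences: in 9 called genes the lower group averaged at or below it.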
